A study of Xenopus laevis with 2 samples.

Results

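Cadherins and protocadherins are transmembrane proteins through which cells adhere to one another, and their messages were examined here in *Xenopus laevis* animal caps, which are pieces of prospective ectoderm cut from the blastula. Gene probes were taken when the array design named them MGC84237 or L29057 or when their description contained the word cadherin, and probes for catenins and other cadherin-associated proteins were left out. The rule gave 13 of 21495 gene probes, of which 8 were for classical cadherins and 5 for protocadherins. A total of 2 two-colour Agilent arrays were analysed, 1 for each treated sample. On the active EBF3 array, caps from embryos injected with 1 ng of hGR-Xebf3 mRNA and treated with 30 µM dexamethasone (DEX) for 4.5 hours were labelled with Cy3. On the hGR array, the Cy3 sample was caps that carried 0.4 ng of hGR mRNA and received the same DEX treatment. The Cy5 sample of both arrays was untreated caps with 1 ng of hGR-Xebf3 mRNA. hGR is the hormone-binding part of the human glucocorticoid receptor, and DEX activates the neuronal transcription factor EBF3 to which it is fused in hGR-Xebf3.

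All mRNA was injected at the one-cell stage, caps were dissected at stage 9 and no Noggin was given, so the caps were not neuralized. The injected message is transient and spreads over the whole embryo, and the untreated caps also carried the fusion. The hGR caps therefore differed from the untreated caps in 2 ways, by DEX and by the mRNA they carried. Each comparison rests on 1 array of 1 biological experiment without a dye swap, so no test between conditions was possible. The ± values below are the spot error of the scanner software and not a spread between samples. A lower signal from such caps can come from fewer cells that express a gene or from less RNA per cell, which cannot be told apart.

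Classical cadherins join cells of like kind through calcium-dependent contacts, and catenins link them to actin inside the cell. C-cadherin is the maternal cadherin that holds the blastomeres of the frog embryo together, E-cadherin is typical of ectoderm that becomes epidermis, and N-cadherin is typical of the neural plate. Protocadherins adhere more weakly and often act in sorting and signalling. The protein encoded by *pcdh8*, known in *Xenopus* as paraxial protocadherin, is expressed in gastrula mesoderm and lowers adhesion through C-cadherin.

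Signals are the software's processed intensities after background subtraction and LOWESS dye normalization, and ratios are log2 of Cy3 over Cy5. Of all gene probes, 52.5% and 54.1% were flagged by the software as well above background in Cy3 and Cy5 of the active EBF3 array, and 49.4% and 57.8% in those of the hGR array. All 13 cadherin and protocadherin probes had a usable spot on both arrays, and none was non-uniform or saturated. Of these, 6 were well above background in all channels of both arrays, 4 in no channel, and the others in some. All usable probes together had a median log2 ratio of -0.09 with active EBF3 and of -0.06 in hGR caps. A single array limits the precision of each ratio, and each array was a slide of its own, so slide and treatment cannot be told apart.

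Names come from the array design, and 6 of the 13 probes were matched by a name or synonym to a RefSeq entry of the assembly Xenopus_laevis_v10.1. *X. laevis* has a long (L) and a short (S) copy of many genes, which probes of unknown sequence cannot separate. MGC84237 is the probe that the study lists for *pcdh8*. That name, and not the probe, matched pcdh8.L, for which RefSeq also gives the names papc and xpapc. The match therefore rests on the label of the study, which calls the gene only the likely homolog. In that annotation *pcdh8* and *pcdh8.2* stand next to each other with 0 genes between them on chromosomes 2L and 2S, as do *cdh1* and *cdh3* on 4L and 4S. The identity of L29057 is not settled. Its description is XTCAD-1 cadherin, a synonym under cdh3.S (C-cadherin), whereas annotation given with the study calls it E-cadherin, and cdhc-A matched the same entry. The primer pair with which the study measured *pcdh8* by RT-QPCR is shown because it is the one sequence of these genes in the sources used here. No letters are capitalized, since no position within them bears on the array values, and the primers are not the array probe.
pcdh8 forward primer: aggacagcggcaaaggtgac
pcdh8 reverse primer: ggcggggagagcagatttag

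To describe the adhesion genes under active EBF3, both channels of each probe were compared. 2 probes stood far apart from the other 11 in opposite directions. The L29057 cadherin was 24.3-fold lower in active EBF3 caps than in untreated caps, and *pcdh8* (MGC84237) was at least 26.6-fold higher. The L29057 value is a ratio of processed signals, and the *pcdh8* bound was taken from these signals after Aquantile scaling between the arrays. With normexp background correction and loess the log2 ratios were -2.98 and 2.92, so the bound is not a floor over other processing. Neither the C-cadherin probe cdhc-A nor the N-cadherin probe cdhn-B-prov passed 2-fold on either array. Both extremes were those of probes selected by name with earlier results of these data known, so they are given as a description.

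**Figure D1:**
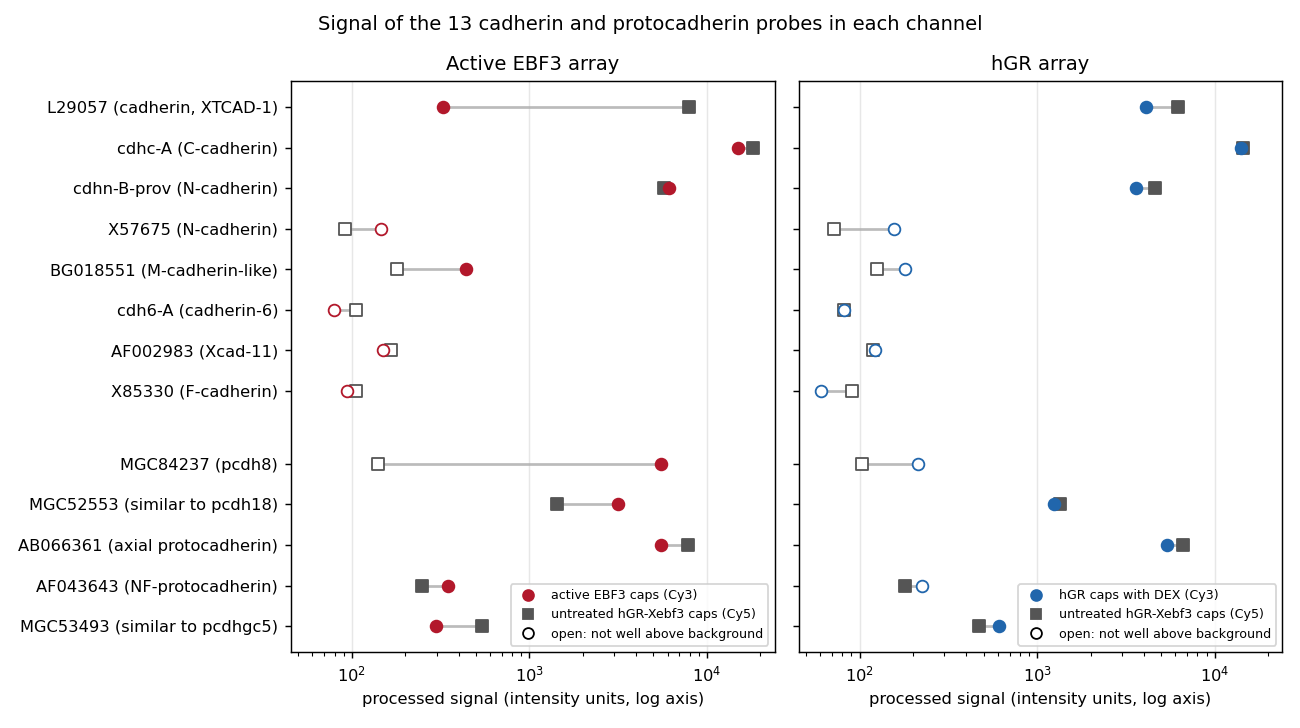
Processed signal (intensity units, log axis) of each of the 13 probes in the Cy3 channel (circles) and the untreated Cy5 channel (squares) of the active EBF3 array (left) and the hGR array (right), with open symbols where a channel was not well above background. The long lines on the left are L29057, with 328 in active EBF3 caps and 7961 in untreated caps, and MGC84237, with 5486 in active EBF3 caps and 141 in untreated caps. Levels of different probes are not comparable.

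Among the classical cadherins, L29057 had a signal of 328 in active EBF3 caps, against 7961 in the untreated caps of the same array. In hGR caps it had 4123, against 6227 in untreated caps. The active EBF3 sample was thus the low one, and the 3 other channels lay within 2-fold of one another. The log2 ratio was -4.60 ± 0.39 with active EBF3. On the hGR array it was -0.60 ± 0.17, which is 1.51-fold lower in hGR caps. Both channels of both arrays were well above background. Only 11 of 21283 usable probes had a lower ratio with active EBF3, whereas 2167 of 21343 had a lower one in hGR caps.

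The probes cdhc-A and cdhn-B-prov did not pass 2-fold. They do not settle what the C-cadherin and N-cadherin genes did, since L29057 may also be a C-cadherin probe and the other N-cadherin probe, X57675, was not well above background. The C-cadherin probe cdhc-A had 15051 in active EBF3 caps and 18111 in untreated caps, a log2 ratio of -0.27 ± 0.17 (1.20-fold lower). In hGR caps it had 14088 and in untreated caps 14491, a log2 ratio of -0.04 ± 0.16. All 4 values lay within 1.3-fold of one another, and this probe was brighter in untreated caps on both arrays. The N-cadherin probe cdhn-B-prov had 6116 in active EBF3 caps, against 5715 in untreated caps, and 3588 in hGR caps, against 4605 in untreated caps. Its log2 ratios were 0.10 ± 0.16 and -0.36 ± 0.17, so active EBF3 caps stood slightly above and hGR caps slightly below their reference.

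BG018551, an EST described as similar to muscle cadherin, was the classical cadherin probe that passed 2-fold upwards with active EBF3. It had 440 in active EBF3 caps and 180 in untreated caps, and 181 in hGR caps and 126 in untreated caps. Only the active EBF3 channel was well above background. The log2 ratio was 1.29 ± 0.42, which gives at least 2.14-fold higher with active EBF3, and on the hGR array the log2 value of 0.53 ± 0.56 had neither channel well above background. With normexp and loess the log2 ratio with active EBF3 was 0.33, which is below that bound and does not pass 2-fold. These bounds set the brighter channel against the lowest signal well above background, or the dim probe's own signal where that was higher, and they are open to dye bias.

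Another N-cadherin probe, X57675, and those for cadherin-6 (cdh6-A), cadherin-11 (AF002983, Xcad-11) and F-cadherin (X85330) were not well above background in any channel. X57675 had 146 in active EBF3 caps and 91.3 in untreated caps, and 157 in hGR caps and 72.1 in untreated caps. Its log2 ratios of 0.68 ± 0.95 and 1.12 ± 0.76 carried the wide spot errors of dim spots. The remaining 3 had log2 ratios between -0.40 and -0.15 with active EBF3 and between -0.58 and 0.03 in hGR caps. For cdh6-A and X85330 both channels of the active EBF3 array held surrogate values, which the software puts in place of signals that do not exceed background, and so they did for X85330 on the hGR array. No fold is given for these 4 probes, and a difference between the samples was not detectable at this signal.

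**Figure D2:**
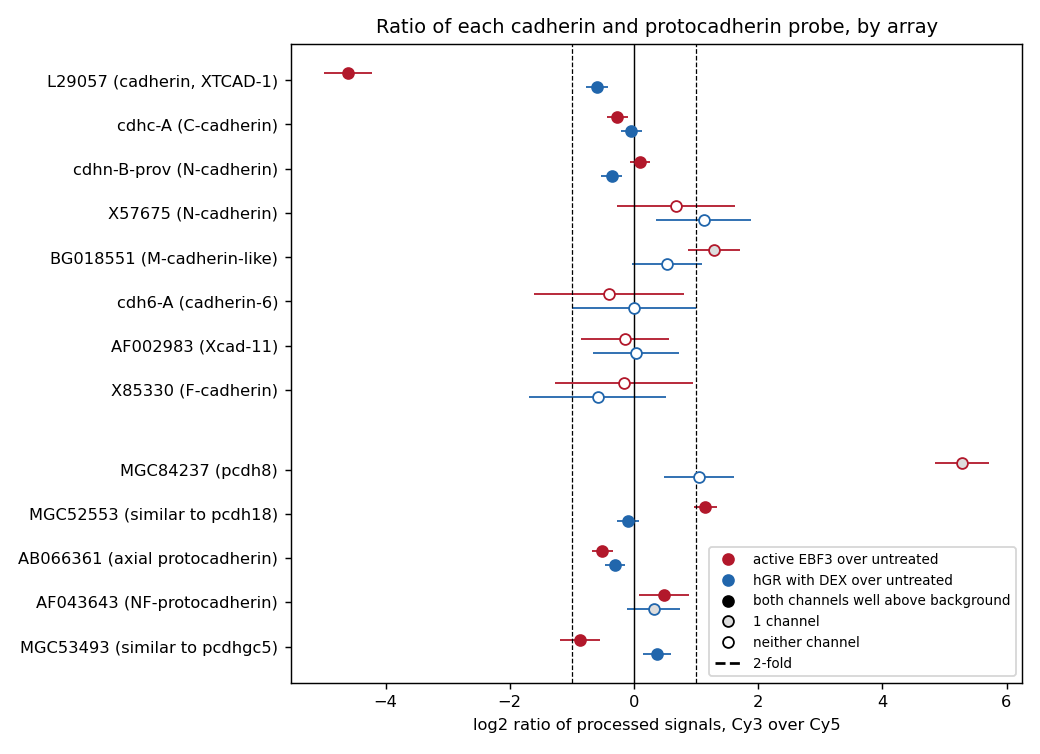
Log2 ratio of Cy3 over Cy5 of each probe with active EBF3 (red, upper point) and in hGR caps (blue, lower point), with bars for ± 1 spot error of the software and dashed lines at 2-fold. Filled, grey and open points had 2, 1 and 0 channels well above background. L29057 at -4.60 and MGC84237 at 5.28 on the active EBF3 array lie far outside the range from -0.60 to 1.12 of the 13 cadherin and protocadherin probes on the hGR array.

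Of the protocadherins, *pcdh8* and MGC52553 were higher with active EBF3, and the others changed by less than 2-fold. *pcdh8* (MGC84237) had a signal of 5486 in active EBF3 caps, against 141 in untreated caps. It had 214 in hGR caps, against 104 in untreated caps. Only the active EBF3 channel was well above background, and it was the high one of the 4. The log2 ratio of the signals was 5.28 ± 0.44 with active EBF3, and the bound was at least 26.6-fold higher. On the hGR array the log2 ratio was 1.05 ± 0.56 with neither channel well above background, so no fold is given.

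MGC52553 is described by the array design as similar to protocadherin 18, a cell adhesion molecule of the same non-clustered group as *pcdh8*, while annotation given with the study calls it a second *pcdh8* gene. It had 3176 in active EBF3 caps and 1430 in untreated caps, and 1247 in hGR caps and 1337 in untreated caps. All 4 channels were well above background, and the active EBF3 sample was the high one. With active EBF3 the log2 ratio was 1.15 ± 0.19 (2.22-fold higher), and in hGR caps it was -0.10 ± 0.18 (1.07-fold lower). With normexp and loess the log2 ratio with active EBF3 was 0.85, short of 2-fold.

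The probe similar to protocadherin gamma C5 (MGC53493), a member of a clustered family best known from neurons, had 298 in active EBF3 caps and 542 in untreated caps. In hGR caps it had 611 and in untreated caps 473. Active EBF3 caps were below and hGR caps above their reference, with log2 ratios of -0.86 ± 0.32 (1.82-fold lower) and 0.37 ± 0.22 (1.29-fold higher). Neither ratio passed 2-fold on its own array.

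Axial protocadherin (AB066361), named for its expression in the axial mesoderm, had 5502 in active EBF3 caps and 7844 in untreated caps, and 5396 in hGR caps and 6665 in untreated caps. It was lower than untreated caps in both treated samples, with log2 ratios of -0.51 ± 0.17 and -0.31 ± 0.17. NF-protocadherin (AF043643, matched to pcdh7.L), which acts in adhesion of the embryonic ectoderm in *Xenopus*, had 349 in active EBF3 caps and 249.9 in untreated caps, and 225 in hGR caps and 181 in untreated caps. Its log2 ratios were 0.48 ± 0.40 and 0.32 ± 0.43, close to the size of the spot errors, and its hGR signal was not well above background.

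With active EBF3, 4 of the 13 probes passed 2-fold against untreated caps, where 4.14% of all usable probes did. MGC84237 and L29057 are among these 4 and were selected by name with earlier results known. The shares of all probes are therefore no yardstick for them, and the count rests otherwise on BG018551 and MGC52553. MGC84237, BG018551 and MGC52553 were higher (3 of 13, against 2.11% of all probes) and L29057 was lower (1 of 13, against 2.03%). Among the 7 measured in both channels, MGC52553 and L29057 passed (2 of 7, against 4.92% of all probes so measured, 2.51% higher and 2.41% lower). The median log2 ratio was -0.15 over the 13 probes and -0.09 over all probes. The classical cadherins had a median of -0.16 and the protocadherins of 0.48, with ranges from -4.60 to 1.29 and from -0.86 to 5.28. With normexp background correction and loess, MGC52553 and BG018551 no longer passed. The 2 of 13 that did, against 1.79% of all probes, were MGC84237 and L29057, the probes selected by name.

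In hGR caps, 2 of the 13 probes passed 2-fold, both upwards, where 5.09% of all usable probes did (1.02% higher and 4.08% lower). By the deposited log ratio the count was also 2, against 2.72% of all probes, so the 5.09% depends on the ratio used. The 2 probes were MGC84237 and X57675, and neither had a channel well above background. Of the 6 probes measured in both channels of the hGR array, 0 passed, against 2.30% of all probes so measured (0.864% higher and 1.44% lower). The median log2 ratio was 0.00 over the 13 probes and -0.06 over all probes. MGC84237 was the 1 probe past 2-fold in the same direction on both arrays. Both arrays used untreated hGR-Xebf3 caps as reference, perhaps from 1 RNA extract, so its 2 ratios cannot be taken as independent.

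**Figure D3:**
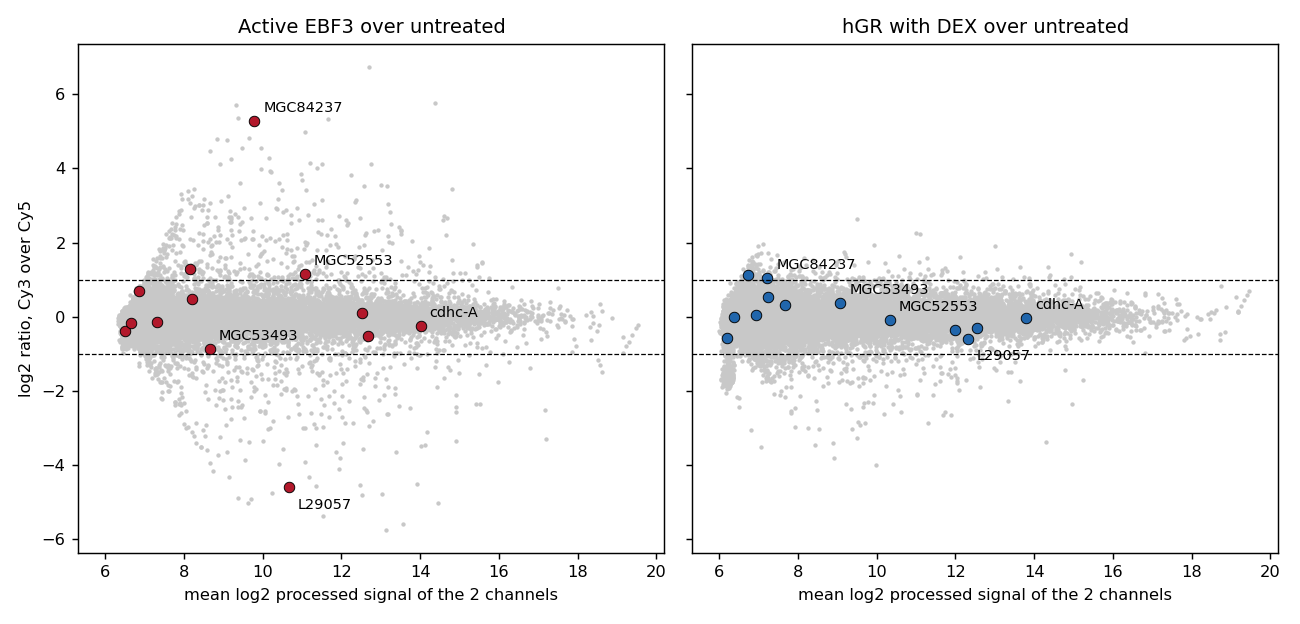
Log2 ratio of Cy3 over Cy5 of all usable gene probes (grey) and of the 13 cadherin and protocadherin probes (coloured) against the mean log2 processed signal of the channels, for the active EBF3 array (left) and the hGR array (right), with dashed lines at 2-fold. MGC84237 and L29057 lie towards the upper and lower edges on the left, with 11 probes below L29057. The place of MGC84237 is that of its signal ratio, since its untreated channel was not well above background.

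Active EBF3 caps were then set against hGR caps, since both received DEX. L29057 was 16.1-fold lower in active EBF3 caps than in hGR caps when the ratios to the untreated caps of each array were divided (log2 -4.01). Set directly against each other after Aquantile scaling of all channels, the Cy3 signals of active EBF3 and hGR caps differed by -3.91 (log2). *pcdh8* (MGC84237) was at least 20.9-fold higher in the direct comparison, and no difference of ratios is given because neither hGR-array channel was well above background. MGC52553 was 2.38-fold higher by ratios and 2.10-fold higher directly, and MGC53493 was 2.35-fold and 2.51-fold lower. These 4 of 13 probes passed 2-fold, 2 in each direction, where 8.38% of all usable probes did (5.12% higher and 3.26% lower). L29057 and MGC84237 are among these 4 and were selected by name. MGC84237 enters this count by its signal ratios, and 3 passed when each array had to have at least 1 channel well above background, against 8.1% of all probes. With normexp and loess 2 passed (1 higher and 1 lower, against 2.18% of all probes), and MGC52553 and MGC53493 did not. BG018551 passed 2-fold against untreated caps but not against hGR caps, where the log2 difference was 0.76 and the direct bound at least 1.76-fold higher. For cdhc-A, cdhn-B-prov and AB066361 the log2 differences were -0.23, 0.46 and -0.21.

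The untreated caps on the 2 arrays gave a measure of how closely a signal repeats between slides, although the labels do not say whether they were 1 RNA extract. For the 7 cadherin and protocadherin probes whose Cy5 signal was well above background on each array, the Aquantile-scaled Cy5 signals differed by at most 0.19 on the log2 scale. The SD of this difference was 0.17 over 11243 probes well above background, and that of the Cy3 signals was 0.63 over 10010 probes. Some marker probes used below repeated far less closely in Cy5, and were brighter on the active EBF3 array. The log2 Cy5 differences were 3.17 and 1.14 for the *myod* probes MGC52596 and LOC397758. For the *neurod* probe MGC82572 it was 2.23, with the hGR-array signal not well above background. For such probes the untreated channels of the 2 arrays are not interchangeable, and the cause was not tested. For L29057 the Cy5 difference was 0.10, against a Cy3 difference of -3.91. For MGC84237 it was 0.15 with both Cy5 signals not well above background, against a Cy3 difference of 4.39. For MGC52553 it was -0.18, against a Cy3 difference of 1.07.

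Probes found by words for proteins that work with cadherins were examined next. Catenins did not pass 2-fold on either array, where 4.14% of all usable probes did with active EBF3 and 5.09% in hGR caps. By the deposited log ratio the share in hGR caps was 2.72%. At these shares a list as short as those here would often have no probe past 2-fold. With active EBF3, the 9 probes found by the words catenin, plakoglobin or p120 ranged from -0.34 to 0.20 (log2), and 8 were usable on the hGR array and ranged from -0.37 to 0.08. Among the 9 are catnbip1-prov and ctnnbl1-prov, whose names are of catenin-related proteins and not of catenins. Beta-catenin (ctnnb1-prov), which binds the cadherin tail, had 234515 in active EBF3 caps and 246332 in untreated caps, and 236147 in hGR caps and 231949 in untreated caps. Its 4 values lay within 1.1-fold of one another. Desmosomal genes (3 probes) and tight junction genes (5 probes, 4 usable on the hGR array) had none past 2-fold on either array. Plakophilin-3 (LOC403375), a plaque protein of desmosomes, was the lowest of these with 3004 in active EBF3 caps, against 5014 in untreated caps (log2 -0.74 ± 0.17), and 4251 in hGR caps, against 4435 in untreated caps. The other plakophilin-3 probe, pkp3-prov, had 6796 in active EBF3 caps and 7263 in untreated caps (log2 -0.10 ± 0.16), so the 2 probes of this name differed. None of the 4 neural adhesion probes, among them NCAM, *l1cam* and nectin-like 1, passed 2-fold on either array. With active EBF3 only 1 of the 4 was measured in both channels and 2 in neither, NCAM among them, so for most of these probes a difference was not detectable at this signal.

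Of the repressors of cadherin transcription, 2 probes were found by the words searched. Snail (sna), a zinc finger protein known to repress the E-cadherin gene in vertebrates, had 2226 in active EBF3 caps and 527 in untreated caps, and 386 in hGR caps and 436 in untreated caps. The active EBF3 sample was the high one, with all channels well above background and a log2 ratio of 2.08 ± 0.24 (4.22-fold higher), against -0.18 ± 0.26 in hGR caps. Slug (LOC398235) had 183 in active EBF3 caps and 286 in untreated caps, at least 1.39-fold lower, and 193 in hGR caps and 201 in untreated caps. Whether the snail signal has a part in the L29057 value was not tested.

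**Figure D4:**
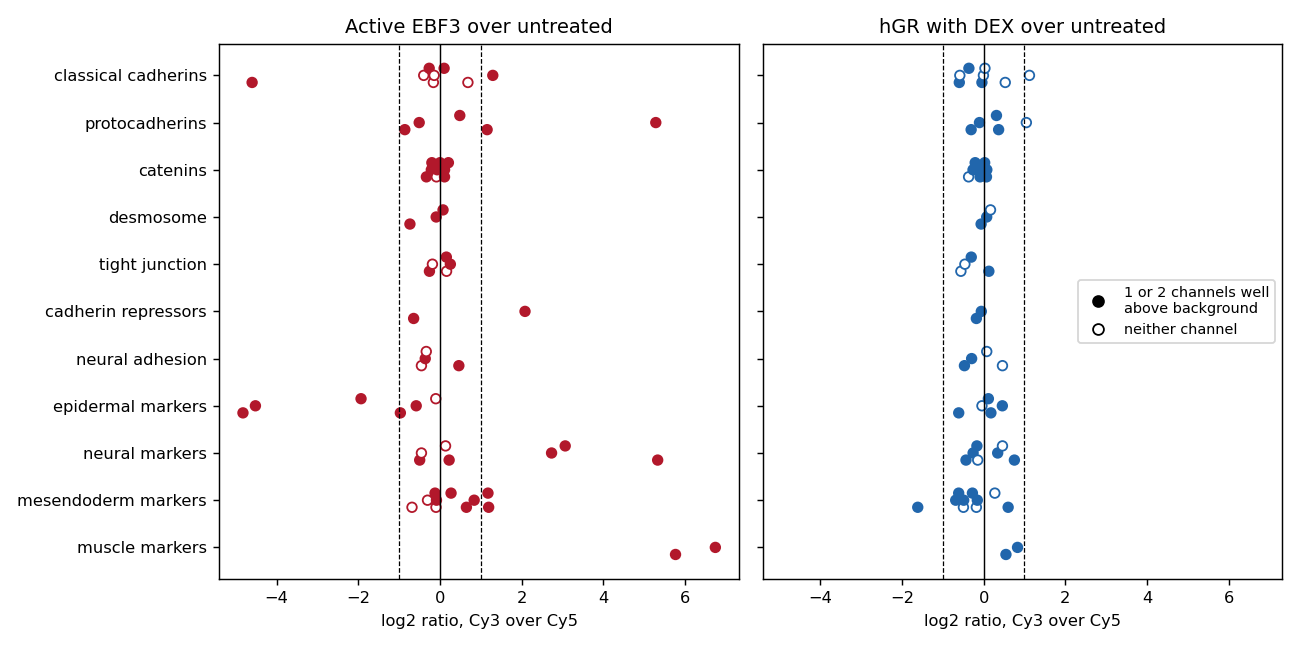
Log2 ratio of Cy3 over Cy5 of single probes by gene group, for active EBF3 caps (left) and hGR caps (right), with filled points where at least 1 channel was well above background and dashed lines at 2-fold. Catenins span -0.34 to 0.20 on the left, between cadherin values of -4.60 and 5.28.

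Epidermal markers, which belong to the tissue itself, differed between the same samples as L29057. Of 6 epidermal probes, 3 were past 2-fold lower with active EBF3, against 2.03% of all usable probes. In hGR caps 0 of 5 usable ones were, against 4.08% of all usable probes and 1.44% of those measured in both channels. The summed signal of the 6 was 426610 in active EBF3 caps and 944031 in untreated caps. Over the 5 usable on the hGR array, without dlx3-A-prov, it was 706897 in hGR caps and 658274 in untreated caps. Such a sum follows its brightest probe, here the keratin LOC397756 with 415421 in active EBF3 caps and 815528 in untreated caps. The tp73l-A probe (p63, a defining epidermal factor) was not well above background in any channel, and the others were in all. The keratins krt1-2-prov and MGC68905 had log2 ratios of -4.83 and -4.52, of a size like that of L29057. Their part in the L29057 value was not tested.

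Some markers of other cell types were also higher in the sample in which *pcdh8* was high. Of 7 neural probes, 3 were past 2-fold higher with active EBF3 (MGC82572 for *neurod*, neurod1-A and Sox-2), against 2.11% of all usable probes. In hGR caps 0 were, against 1.02%. The summed signals of the 7 were 216903 in active EBF3 caps and 121579 in untreated caps. On the hGR array they were 97939 in hGR caps and 103580 in untreated caps. The brightest of the 7 in each channel was sox3, which did not pass 2-fold. It had 128732 in active EBF3 caps and 110465 in untreated caps (log2 0.22 ± 0.16), and 85614 in hGR caps and 95905 in untreated caps. X-NGNR-1b was lower with active EBF3, with 178 against 251 in untreated caps (log2 -0.50 ± 0.54). For X-NGNR-1a the log2 ratio was 0.13 ± 0.67. NCAM, which is also among the adhesion probes above, was not well above background in any channel. Both *myod* probes were higher with active EBF3 (log2 6.74 and 5.76), with summed signals of 226126 in active EBF3 caps and 3538 in untreated caps, and 836 in hGR caps and 519 in untreated caps. Of 10 mesendoderm probes, 2 were past 2-fold higher with active EBF3 (chordin, LOC398045, and eomesodermin, LOC398065), against 2.11% of all usable probes. Eomesodermin was also higher in hGR caps, with 562 against 371 in untreated caps (log2 0.60 ± 0.24). Set directly against each other, active EBF3 caps were 1.23-fold above hGR caps for this probe. In hGR caps 1 of the 10 was past 2-fold lower (chordin), against 4.08% of all usable probes and 1.44% of those measured in both channels. The other mesendoderm probes measured in both channels with active EBF3 had log2 ratios from -0.12 (Xsox17-alpha) to 0.83 (Mix.1). The summed signals of the 10 were 15329 in active EBF3 caps and 9615 in untreated caps, and 5428 in hGR caps and 8140 in untreated caps. Brachyury (Xbra), the defining gene of gastrula mesoderm, was not well above background in any channel, nor were Xsox17-beta and nog-A. The brightest mesendoderm probe was Brat, which is not a probe for brachyury. Brat had 7483 in active EBF3 caps and 4790 in untreated caps, so the sum follows it in large part. The part of these cell types in the *pcdh8* value was not tested.

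L29057 and MGC84237 kept their directions with active EBF3 under median centring and under normexp with loess, although the size depended on the processing. The deposited log ratio, the series table and keeping non-uniform spots repeat the same processed signals, so they could not change these values.

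**Figure D5:**
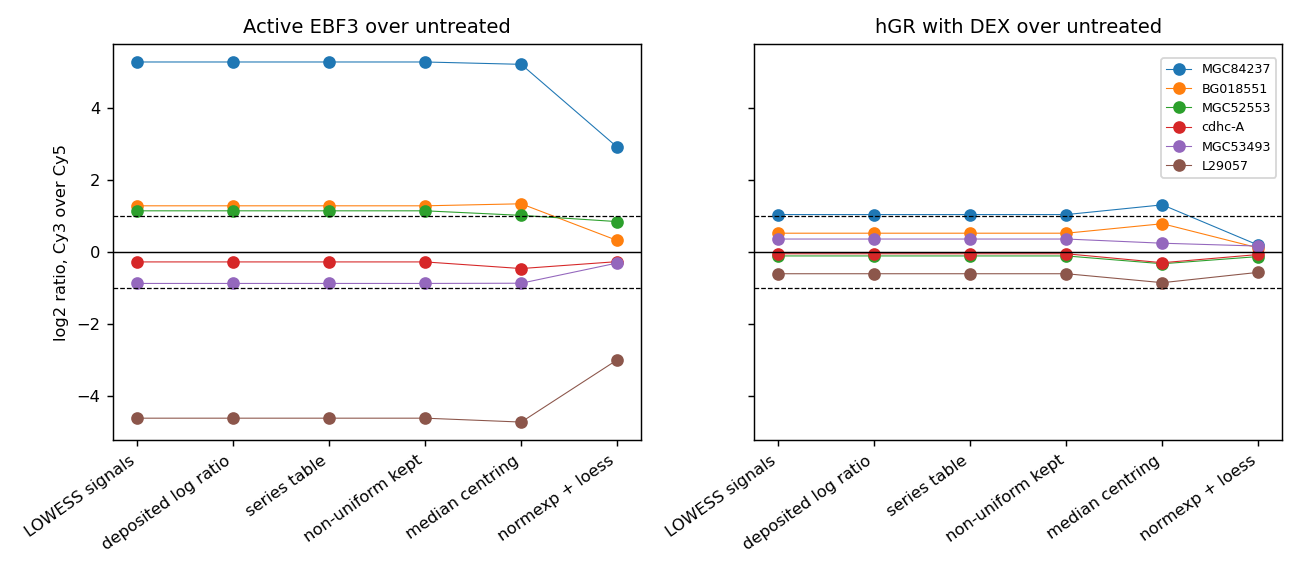
Log2 ratio of Cy3 over Cy5 of 6 probes under 6 ways of processing, for active EBF3 caps (left) and hGR caps (right), with dashed lines at 2-fold. MGC84237 and L29057 stay past 2-fold on the left under each of these, at their smallest 2.92 and -2.98 with normexp and loess. The deposited log ratio, the series table and non-uniform kept repeat the LOWESS values of the 6 probes, so only median centring and normexp could differ.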

How the data were processed

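Spot intensity values were deposited as scanner output of Agilent Feature Extraction 8.1.1.1, per the file headers, from scans at 10 µm per pixel, whereas the methods of the study name another version and resolution. The authors' processed intensity was background-subtracted and LOWESS-normalized within each array. The log10 ratio deposited by the authors has Cy5 as its numerator and Cy3 as its denominator, and 100% of the values in the authors' series table equal it with the sign turned. The deposited p-value covers spot error only. Groups followed the treatment stated per the labels.

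From these, log2 of processed Cy3 over Cy5 was computed for gene probes, non-uniform spots were left out and 2-fold was used as the threshold, after the methods of the study. No test was run. Scripts were tested on simulated data. Lower bounds used Aquantile normalization in limma 3.58.1. Genes named were MGC84237, L29057, probes past 2-fold and well above background, the 2 with the brightest Cy5 signal, and partner genes past 2-fold. Other probes are named to account for all 13. Some partner genes short of 2-fold, such as beta-catenin, plakophilin-3, slug and NCAM, are named outside this rule. The members and lists were chosen with earlier results of these data known. Alternatives were other background corrections, normalizations, ratios, spot filters and thresholds. RefSeq was used for names and neighbours only.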

Additional observations from a re-analysis of the deposited data

Results flagged for a closer look

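The probe similar to protocadherin gamma C5 (MGC53493) lay on opposite sides of its reference on the 2 arrays. It had 298 in active EBF3 caps and 542 in untreated caps, against 611 in hGR caps and 473 in untreated caps, and the log2 difference between the ratios was -1.23. With normexp and loess the log2 ratios were smaller, -0.30 with active EBF3 and 0.17 in hGR caps, and their difference did not pass 2-fold. All 4 signals were well above background. With 1 array per comparison, the difference was not tested.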

How the results depend on the processing

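No paired analysis was possible because there was a single array for each treated sample, and no replicate could be left out. No called value changed sign. With normexp and an offset of 50, 2 probes passed 2-fold with active EBF3 (1 higher, 1 lower, against 1.79% of all probes), 0 in hGR caps (0.473%), and 2 for active EBF3 over hGR (1 higher, 1 lower, 2.18%). L29057 then had a log2 ratio of -2.98, MGC84237 2.92, MGC52553 0.85 and BG018551 0.33 with active EBF3. At 5-fold the counts were 2, 0 and 2, against 1.07%, 0.159% and 1.2% of all probes. The probes in these counts with normexp and at 5-fold were L29057 and MGC84237, which were selected by name. When both channels had to be well above background they were 2 with active EBF3 (4.92%) and 0 in hGR caps (2.30%), and with 1 such channel required they were 4 (7%) and 0 (3.59%). A spot p-value under 0.01 left 0 in hGR caps (1.71%). The median with active EBF3 was 0.074 with normexp, 0.028 with median centring, 0.098 in the series table (11 probes) and 0.098 with 1 channel well above background required. The median in hGR caps was 0.30 with median centring and -0.20 with both channels required. The other counts stayed within 1.5 times, but not all shares of all probes did. With median centring the counts were 5, 3 and 5, against 13.3%, 16.8% and 16.8% of all probes. The probe added on each array was cdh6-A (log2 2.92 and 2.62), which was not well above background in any channel. At 1.5-fold the counts were 6, 3 and 5, against 11.4%, 15.9% and 19.8%. Of the values of single probes under alternatives, 92 lay within 0.17 (log2) of the value given above and 34 did not. Most of the 92 came from the deposited log ratio, the series table and kept non-uniform spots. These repeat the same processed signals for all of the cadherin and protocadherin probes but cdh6-A and X85330, so the 92 are not a measure of robustness. Nearly all of the 34 came from median centring or normexp. The cause of these moves was not tested. Signal over background limits 4 probes to no statement.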

Other observations

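Genes that act beside cadherins in the frog embryo were looked up with these values already known. The transmembrane protein Flrt3, which in *Xenopus* lowers cadherin adhesion, had 3914 in active EBF3 caps and 551 in untreated caps, and 281 in hGR caps and 377 in untreated caps. Its relative *flrt2* had 1741 in active EBF3 caps and 408 in untreated caps, and 297 in hGR caps and 242 in untreated caps. Both were highest in active EBF3 caps, with log2 ratios of 2.83 ± 0.27 and 2.10 ± 0.25, against -0.43 and 0.30 in hGR caps. The GTPase Rnd1 (rho6-prov), a partner of Flrt3, had a log2 ratio of 0.06 ± 0.36 with active EBF3, and *sprouty2* (LOC398313) had one of -0.73 ± 0.18.

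A probe whose gene name is CDH1 has no description containing cadherin and did not enter the set. It had 60375 in active EBF3 caps and 73227 in untreated caps, and 84234 in hGR caps and 65813 in untreated caps, with log2 ratios of -0.28 and 0.36. The symbol is also used for a regulator of the cell cycle, so the gene is not settled.

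Annotation given with the study names 4 further probes as cadherin-like, in lists that were chosen by change. CF288050 (cadherin 15-like) had 312 in active EBF3 caps and 87.5 in untreated caps, at least 1.53-fold higher, and 66.9 in hGR caps and 79.2 in untreated caps. The other 3 (MGC81522, BJ063402 and BX842955) were not well above background in any channel.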
